A study of Arabidopsis thaliana with 18 samples.

Results

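Transcripts of 10 genes of iron uptake and iron status were followed across all 18 RNA sequencing libraries of dark-grown Arabidopsis thaliana seedlings. The 10 genes were picked by gene identifier out of the 32833 genes in each table. They are IRT1 (AT4G19690), IRT2 (AT4G19680), FRO2 (AT1G01580), AHA2 (AT4G30190, listed as HA2), FIT (AT2G28160), BHLH38 (AT3G56970, listed as ORG2), BHLH39 (AT3G56980, listed as ORG3), BHLH100 (AT2G41240), PYE (AT3G47640, listed as BHLH47) and FER1 (AT5G01600). All 10 passed the filter on low counts.

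The 6 groups of 3 libraries were GNLox with 1% sucrose, GNLox without sucrose, gnc gnl with 1% sucrose, gnc gnl without sucrose, Col-0 with 1% sucrose and Col-0 without sucrose. GNLox is a transgenic line named for overexpression of GNL, a B-GATA transcription factor gene, and the promoter of its transgene is not given in the sources used here. The line gnc gnl is a double mutant of GNC and GNL, and Col-0 is the wild type, the ecotype of all 3 genotypes. All seedlings were 3 days old and had grown in darkness at 21 °C on 1/2 MS, a mineral salt medium, so the absence of light was common to every group. The labels do not say that the replicates came from separate cultures. The p-values below therefore cover the spread of libraries within groups, which may be technical. The main fit estimated this spread over all 18 libraries together.

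Arabidopsis takes up iron by a reduction-based route at the root surface. The proton pump AHA2 acidifies the soil next to the root, the ferric chelate reductase FRO2 reduces ferric to ferrous iron, and the transporter IRT1 carries ferrous iron into epidermal cells. The bHLH factor FIT activates FRO2 and IRT1 together with bHLH factors of subgroup Ib, among them BHLH38, BHLH39 and BHLH100, whose transcripts are known to accumulate when iron is scarce. PYE is a further bHLH factor of iron deficiency, and FER1 encodes a ferritin, a plastid protein that stores iron and whose transcript is known to accumulate when iron is ample.

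Total gene reads were 32368268 to 39143241 per library in GNLox, 27362791 to 41342111 in gnc gnl and 30508391 to 41942516 in Col-0. Plastid genes took 0.91% to 1.55% of them in GNLox with sucrose, against 3.44% to 23.29% without, 2.7% to 5.26% against 5.79% to 12.36% in gnc gnl, and 2.76% to 6.3% against 6.37% to 8.69% in Col-0. Ribosomal RNA genes took 1.73% to 5.71% in GNLox with sucrose, against 8.77% to 46.66% without, 6.84% to 15.21% against 17.05% to 35.36% in gnc gnl, and 7.84% to 27.82% against 12.54% to 20.54% in Col-0. Replicate 3 of GNLox without sucrose stood apart with the highest value of both shares. These shares thus moved with the medium, except for the overlapping ribosomal RNA shares of Col-0, and fits of nuclear genes only or without the 15 ribosomal RNA genes lost and gained 0 calls of the iron genes. GNL was at 4190 ± 1240 CPM (CPM are counts scaled to a common normalized library size, SD, n = 3) in GNLox with sucrose and at 5870 ± 640 CPM without it, above the 1.9 ± 0.808 and 13.5 ± 7.99 CPM of Col-0. GNC was at 9.0 ± 0.426 CPM in gnc gnl without sucrose, against 27.4 ± 9.18 CPM in Col-0, a log2 ratio of -1.61 ± 0.29 (edgeR adjusted p = 0.0195). With sucrose GNC was not called (log2 -1.26 ± 0.29, edgeR adjusted p = 0.112). GNL was at 4.12 ± 1.1 CPM in gnc gnl with sucrose, above Col-0 in every library but not called (log2 1.09 ± 0.43, edgeR adjusted p = 0.252), and at 9.61 ± 2.17 CPM without sucrose, so its reads did not check that label. PORA, a gene of dark-grown seedlings, had 64.8 to 493.5 TPM (a level scaled for transcript length and library) in the 18 libraries.

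Seedlings with sucrose had higher transcript levels of the whole reduction-based uptake route in all 3 genotypes. IRT1, IRT2, FRO2 and AHA2 rose in GNLox, in gnc gnl and in Col-0, and FER1, the ferritin gene, fell in all of them. The regulators did not move as a block: BHLH38 rose in gnc gnl and Col-0, FIT in GNLox and gnc gnl, BHLH39 in GNLox, and PYE in no genotype. Of the 10 genes, 6 rose and 1 fell in GNLox, where edgeR called 28.7% of all tested genes as higher and 26.1% as lower. In gnc gnl 6 rose and 1 fell, with 17.9% and 14.3% over all genes, and in Col-0 5 rose and 1 fell, with 26% and 23.8%. The libraries of the 2 media did not overlap for 7 of the 10 genes in GNLox, 7 in gnc gnl and 6 in Col-0, against 54.8%, 49.5% and 59.5% of all tested genes. The median log2 ratio of the 10 genes was 0.59 in GNLox, 1.49 in gnc gnl and 1.04 in Col-0, and that of all tested genes was 0.03, 0 and 0. In these whole seedlings, fewer cells of a type and less RNA per cell cannot be told apart.

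**Figure D1:**
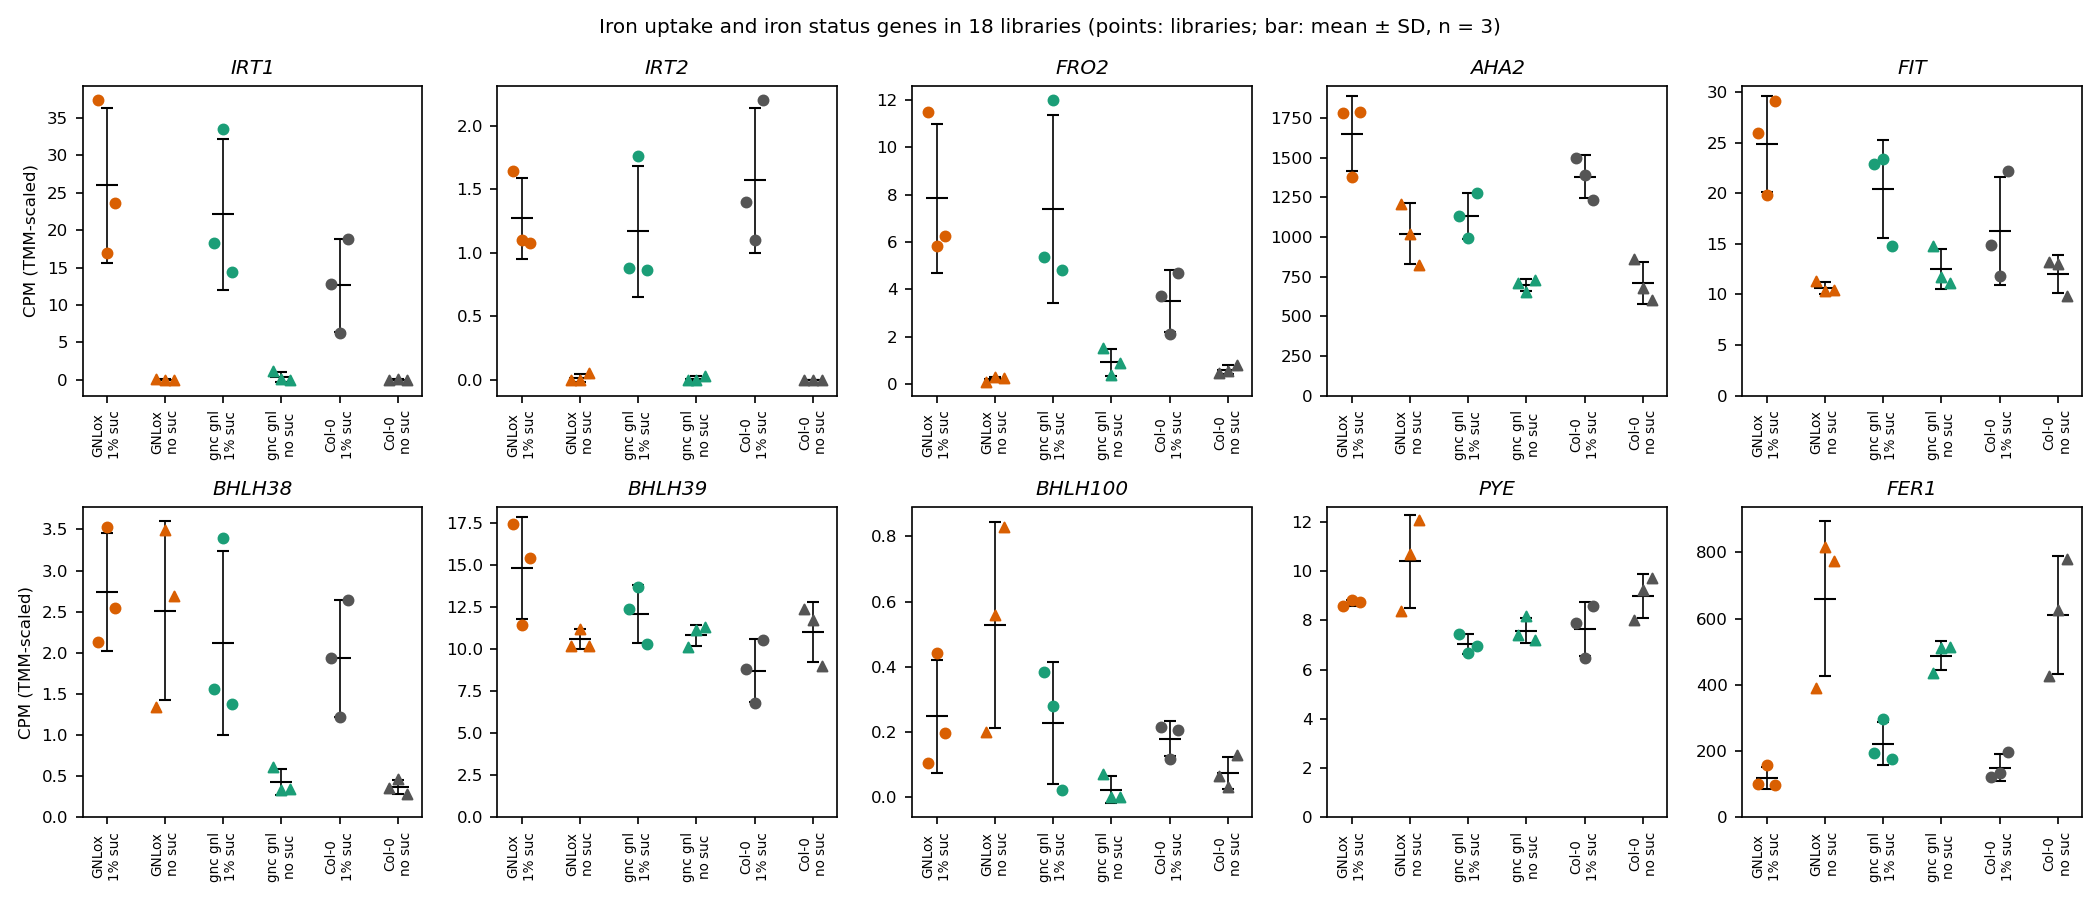
Levels of the 10 genes in CPM on linear axes, with GNLox, gnc gnl and Col-0 from left to right and sucrose before no sucrose in each, where points are libraries (circles with 1% sucrose, triangles without) and bars are mean ± SD of 3 libraries. IRT1, IRT2, FRO2 and AHA2 lie higher and FER1 lower with sucrose in each genotype, and the BHLH38 values of the 2 media overlap in GNLox.

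IRT1, the main iron importer of the root epidermis, had few or no reads without sucrose. The gene lies on the plus strand of chromosome 4 of the TAIR10 assembly at chr4:10707344-10709015. It had 37.4, 16.9 and 23.7 CPM in GNLox with sucrose, against 0.0497, 0 and 0 CPM without sucrose. In gnc gnl it had 18.3, 33.5 and 14.4 CPM with sucrose, against 1.14, 0.0412 and 0 CPM without. Col-0 libraries had 12.8, 6.29 and 18.8 CPM with sucrose, against 0, 0.0658 and 0 CPM without. The media did not overlap in any genotype, while with sucrose the ranges of the 3 genotypes overlapped. In GNLox the reads were 3279 with sucrose and 2 without, a ratio of the pooled levels of 1210 (exact 95% counting interval 334 to 9990). In Col-0 they were 1302 and 2, a ratio of 646 (179 to 5340). In gnc gnl the log2 ratio was 5.79 ± 0.75 (SE). The edgeR adjusted p was 5.18e-06 in GNLox, 0.00012 in gnc gnl and 2.48e-05 in Col-0. Of the 33 IRT1 reads in gnc gnl without sucrose, 32 came from replicate 1. Without that library, where 1 read remained, the log2 ratio in gnc gnl was 10, and over the fits without 1 library it was 5.14 to 10. The 2 reads without sucrose came from replicate 1 in GNLox and replicate 2 in Col-0, without which IRT1 was at least 466-fold higher with sucrose in GNLox and at least 299-fold in Col-0 (3 counts over the group as the floor). Leaving out another library without sucrose gave ratios down to 755 in GNLox and 396 in Col-0.

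IRT2, a close relative of IRT1 also expressed in the root epidermis, is its neighbour at chr4:10703348-10704838, with 2506 bases between them. Their coding sequences were 72.6% identical in a global alignment, and all reads of both were unique. IRT2 had 1.64, 1.1 and 1.08 CPM in GNLox with sucrose, 162 reads in all, against 1 read in the 3 libraries without it. In gnc gnl it had 0.878, 1.76 and 0.867 CPM with sucrose, 128 reads, against 1 read without. Col-0 had 1.4, 1.1 and 2.2 CPM with sucrose, 162 reads, against 0 reads without. IRT2 was thus a low transcript that was detected almost entirely in seedlings with sucrose. Its pooled ratio was 119 (exact 95% interval 21.1 to 4750) in GNLox and 94.5 (16.7 to 3760) in gnc gnl, and in Col-0 it was at least 53.6-fold higher with sucrose, taking 3 counts over the group as the floor. Without replicate 3 of no sucrose, which held the 1 read in both lines, the gene was at least 31.8-fold higher with sucrose in GNLox, 19.6-fold in gnc gnl and 32.9-fold in Col-0. Leaving out another library without sucrose gave ratios down to 69.0 in GNLox and 62.9 in gnc gnl. The edgeR adjusted p was 1.92e-05 in GNLox, 0.000166 in gnc gnl and 1.41e-05 in Col-0.

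FRO2, the reductase that acts before IRT1, lies at chr1:208995-213082 on the plus strand. It had 11.5, 5.82 and 6.24 CPM in GNLox with sucrose, against 0.0993, 0.28 and 0.259 CPM without sucrose. The gnc gnl libraries had 5.37, 12.0 and 4.83 CPM with sucrose, against 1.5, 0.371 and 0.885 CPM without. Col-0 had 3.71, 2.12 and 4.71 CPM with sucrose, against 0.455, 0.559 and 0.805 CPM without. The media did not overlap in any genotype, and GNLox held both the lowest values without sucrose and some of the highest with it. FRO2 rose by log2 5.25 ± 0.6 in GNLox (edgeR adjusted p = 7.88e-06), by 2.98 ± 0.49 in gnc gnl (0.000581) and by 2.51 ± 0.51 in Col-0 (0.000968). Within each genotype, the 3 sucrose libraries had the same order for FRO2 and IRT1. The highest was replicate 1 in GNLox, replicate 2 in gnc gnl and replicate 3 in Col-0.

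AHA2 was already abundant without sucrose and changed far less. It lies on the minus strand at chr4:14770395-14776247, and its coding sequence was 86.1% identical to that of AHA1, another plasma membrane proton pump. AHA2 had 1780, 1380 and 1790 CPM in GNLox with sucrose, against 1210, 1020 and 822 CPM without. AHA2 in gnc gnl had 1130, 991 and 1280 CPM with sucrose, against 708, 656 and 732 CPM without. Col-0 had 1500, 1390 and 1230 CPM with sucrose, against 859, 676 and 602 CPM without. No library without sucrose reached the lowest sucrose library of its genotype. AHA2 rose by log2 0.7 ± 0.17 in GNLox (edgeR adjusted p = 0.00242), by 0.7 ± 0.17 in gnc gnl (0.00558) and by 0.95 ± 0.17 in Col-0 (0.00034).

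FER1, which lies on the minus strand at chr5:227953-230051, went the other way. It had 98.7, 157 and 97.6 CPM in GNLox with sucrose, against 389, 815 and 774 CPM without. FER1 in gnc gnl had 195, 296 and 175 CPM with sucrose, against 436, 511 and 514 CPM without. Col-0 had 120, 132 and 198 CPM with sucrose, against 425, 626 and 781 CPM without. All 9 sucrose libraries lay below all 9 libraries without sucrose, and within the sucrose medium gnc gnl had the highest mean. FER1 fell by log2 2.49 ± 0.32 in GNLox (edgeR adjusted p = 2.19e-05), by 1.13 ± 0.31 in gnc gnl (0.0122) and by 2.02 ± 0.32 in Col-0 (0.000152). Without replicate 3 of gnc gnl with sucrose, the call in gnc gnl was lost (edgeR adjusted p = 0.0574). A non-coding gene, AT5G01595, overlaps FER1 on the other strand by 1334 bases. It averaged 0.485 to 0.918 CPM per group, so its reads were few beside those of FER1.

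The importer gene IRT1 and the ferritin gene FER1 are shown by their upstream sequence because they moved in opposite directions. Each window runs from 250 bases before to 50 bases after the annotated start, read 5′ to 3′ on the gene's strand from the RefSeq TAIR10.1 genome, in which all 10 genes have the positions of the deposited tables. The IRT1 window is chr4:10707094-10707393 (plus strand) and the FER1 window chr5:230002-230301 (minus strand). Capitals mark GATA or its complement TATC, the core bound by GATA factors, and CANNTG, the E-box core bound by bHLH factors, searched on both strands.
IRT1: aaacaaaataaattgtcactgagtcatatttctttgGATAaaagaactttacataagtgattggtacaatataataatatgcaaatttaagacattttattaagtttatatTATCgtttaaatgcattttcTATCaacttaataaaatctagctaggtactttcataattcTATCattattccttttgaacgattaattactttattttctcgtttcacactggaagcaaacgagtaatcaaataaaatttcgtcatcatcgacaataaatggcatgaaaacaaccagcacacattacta
FER1: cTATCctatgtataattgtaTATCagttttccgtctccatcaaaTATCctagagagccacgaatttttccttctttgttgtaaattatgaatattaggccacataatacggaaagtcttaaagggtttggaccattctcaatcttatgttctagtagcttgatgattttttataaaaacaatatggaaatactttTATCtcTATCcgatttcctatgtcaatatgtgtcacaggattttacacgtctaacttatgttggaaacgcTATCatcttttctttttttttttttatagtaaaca
The IRT1 window held GATA 4 times and the FER1 window 6 times, and neither held CANNTG. Of the windows of 27419 nuclear protein-coding genes, 91% held GATA and 61.7% held CANNTG, beside 9 and 4 of the windows of the 10 iron genes. A match is a description of the letters only.

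Among the regulators, FIT rose with sucrose in GNLox and gnc gnl. FIT lies at chr2:12004658-12006276 on the plus strand. It had 26.0, 19.8 and 29.1 CPM in GNLox with sucrose, against 11.3, 10.3 and 10.4 CPM without. FIT in gnc gnl had 22.9, 23.4 and 14.8 CPM with sucrose, against 14.8, 11.7 and 11.1 CPM without. Col-0 had 14.9, 11.8 and 22.2 CPM with sucrose, against 13.2, 13.0 and 9.86 CPM without. The media were well apart in GNLox, touched at 14.8 CPM in gnc gnl and overlapped in Col-0. The log2 ratio was 1.23 ± 0.23 in GNLox (edgeR adjusted p = 0.000415), 0.7 ± 0.23 in gnc gnl (0.029) and 0.44 ± 0.23 in Col-0 (0.117). The call in gnc gnl was lost in 4 of the 6 fits without 1 of its libraries, namely without replicate 2 or 3 of no sucrose and without replicate 1 or 2 of sucrose (edgeR adjusted p up to 0.105). In Col-0, FIT was called without replicate 2 of sucrose (0.0381).

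BHLH38, a subgroup Ib partner of FIT, rose with sucrose in gnc gnl and Col-0. In GNLox it was at 2.74 ± 0.717 CPM with sucrose and 2.51 ± 1.09 CPM without. It had 2.13, 3.53 and 2.55 CPM in GNLox with sucrose, against 1.34, 3.49 and 2.69 CPM without. In gnc gnl it had 1.56, 3.4 and 1.38 CPM with sucrose, against 0.605, 0.33 and 0.348 CPM without. Col-0 had 1.94, 1.22 and 2.64 CPM with sucrose, against 0.358, 0.46 and 0.285 CPM without. In gnc gnl and Col-0 every sucrose library was above every library without sucrose, whereas in GNLox the media overlapped at the sucrose level of the other genotypes. BHLH38 rose by log2 2.28 ± 0.47 in gnc gnl (edgeR adjusted p = 0.00242) and by 2.4 ± 0.47 in Col-0 (0.00079), and its log2 ratio in GNLox was 0.14 ± 0.39 (0.789). BHLH38 lies on the minus strand at chr3:21084035-21085245 and overlaps PIP5K4 on the plus strand by 386 bases. PIP5K4, a phosphatidylinositol phosphate kinase gene, was the more abundant of the pair, at 6.46 to 9.34 mean CPM over the 6 groups, against 0.368 to 2.74 mean CPM for BHLH38. Its log2 ratio with sucrose was -0.1 ± 0.13 in GNLox (edgeR adjusted p = 0.55), -0.32 ± 0.13 in gnc gnl (0.0683) and -0.41 ± 0.13 in Col-0 (0.0148). Since strand is not stated, reads in the shared bases cannot be told apart, and their part in the BHLH38 counts was not tested. Of the BHLH38 reads 84.38% were unique, and its calls were the same with unique reads only.

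BHLH39, the neighbour of BHLH38 at chr3:21086390-21087710, is separated from it by 1145 bases and was several times more abundant. It had 17.4, 11.4 and 15.4 CPM in GNLox with sucrose, against 10.2, 11.2 and 10.2 CPM without. Libraries of gnc gnl had 12.4, 13.7 and 10.3 CPM with sucrose, against 10.1, 11.1 and 11.3 CPM without. Col-0 had 8.81, 6.79 and 10.5 CPM with sucrose, against 12.4, 11.7 and 9.01 CPM without. The media were apart in GNLox, by a narrow margin, and overlapped in gnc gnl and Col-0. The log2 ratio was 0.48 ± 0.17 in GNLox (edgeR adjusted p = 0.0285), 0.16 ± 0.17 in gnc gnl (0.513) and -0.34 ± 0.18 in Col-0 (0.122). In GNLox the call was lost without replicate 1 or 3 of no sucrose, without replicate 1 or 3 of sucrose (edgeR adjusted p up to 0.13) and in a fit of the compared groups only (0.0532). In Col-0, BHLH39 was called as lower without replicate 3 of sucrose (0.041).

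BHLH100, at chr2:17198037-17199454 on the minus strand, was close to the limit of detection, with 129 reads in all 18 libraries. It had 0.104, 0.441 and 0.198 CPM in GNLox with sucrose, against 0.199, 0.559 and 0.829 CPM without. In gnc gnl there were 24 reads with sucrose and 2 without, a pooled ratio of 8.86 (exact 95% interval 2.2 to 77.3), and in Col-0 18 and 8. Both reads in gnc gnl without sucrose were in replicate 1, without which the gene was at least 3.93-fold higher with sucrose, and without replicate 1 of sucrose the ratio was 5.43. None of the 3 sucrose comparisons was called, with edgeR adjusted p = 0.258 in GNLox, 0.0673 in gnc gnl and 0.342 in Col-0. In gnc gnl DESeq2 called it (adjusted p = 0.0455), as did edgeR without replicate 1 of no sucrose (0.0449) or replicate 3 of sucrose (0.0225). PYE, at chr3:17567126-17569394 on the plus strand, had 8.6, 8.84 and 8.73 CPM in GNLox with sucrose, against 8.37, 10.7 and 12.1 CPM without. In gnc gnl and Col-0 its libraries lay between 6.46 and 9.73 CPM over both media. PYE was not called in GNLox (log2 -0.25 ± 0.13, edgeR adjusted p = 0.121), gnc gnl (-0.11 ± 0.13, 0.575) or Col-0 (-0.23 ± 0.13, 0.153), but was called in GNLox without replicate 1 of no sucrose (0.0154).

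**Figure D2:**
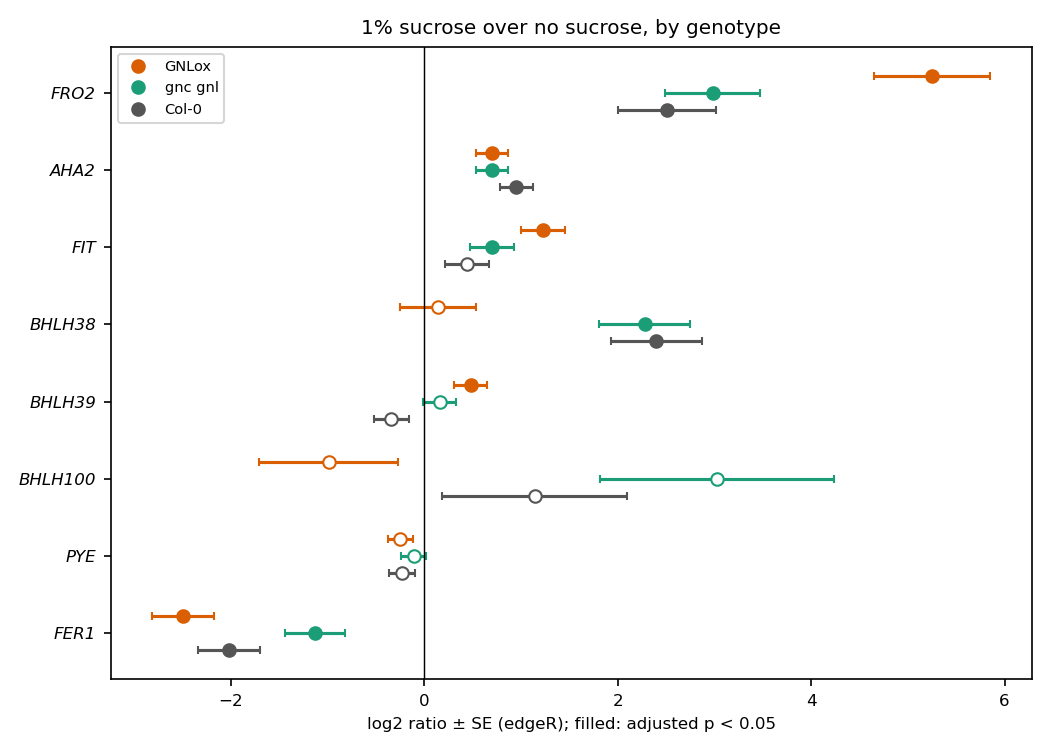
The log2 ratio of 1% sucrose over no sucrose with its SE for 8 genes (rows), with GNLox above gnc gnl and Col-0 in each row and filled points for an edgeR adjusted p under 0.05. FRO2 lies farthest to the right in GNLox at 5.25, FER1 lies left of 0 in each genotype, and BHLH38 lies near 0 in GNLox. IRT1 and IRT2 are not drawn, their ratios being far beyond this scale or bounds, and the BHLH100 point of gnc gnl rests on 2 reads without sucrose.

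The 3 subgroup Ib genes have related coding sequences, with 83.1% identity between BHLH38 and BHLH39, 70.0% between BHLH38 and BHLH100 and 69.1% between BHLH39 and BHLH100. Their start regions are shown because the neighbours BHLH38 and BHLH39 differed in their values across the groups. The windows are chr3:21085196-21085495, chr3:21087661-21087960 and chr2:17199405-17199704, all on the minus strand, with CANNTG and GATA or TATC in capitals as above.
BHLH38: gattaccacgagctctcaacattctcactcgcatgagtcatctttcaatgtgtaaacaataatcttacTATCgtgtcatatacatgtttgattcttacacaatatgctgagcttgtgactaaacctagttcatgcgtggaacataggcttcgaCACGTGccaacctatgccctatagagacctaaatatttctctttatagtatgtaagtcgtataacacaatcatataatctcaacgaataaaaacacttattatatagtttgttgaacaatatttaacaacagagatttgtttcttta
BHLH39: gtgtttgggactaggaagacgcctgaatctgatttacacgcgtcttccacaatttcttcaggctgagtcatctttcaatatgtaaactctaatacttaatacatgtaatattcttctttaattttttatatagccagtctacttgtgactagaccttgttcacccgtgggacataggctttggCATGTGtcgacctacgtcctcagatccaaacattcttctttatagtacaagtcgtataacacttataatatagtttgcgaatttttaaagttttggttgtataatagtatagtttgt
BHLH100: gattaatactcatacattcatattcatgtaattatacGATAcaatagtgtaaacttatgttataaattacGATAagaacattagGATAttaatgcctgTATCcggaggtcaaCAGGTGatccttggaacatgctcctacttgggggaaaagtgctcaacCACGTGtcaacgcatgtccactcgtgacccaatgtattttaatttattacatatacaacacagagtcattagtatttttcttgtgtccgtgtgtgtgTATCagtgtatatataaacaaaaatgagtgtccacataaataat
The BHLH38 and BHLH100 windows each held CACGTG, the G-box form of CANNTG, once, and the BHLH39 window held CATGTG instead. CACGTG was found in 7.67% of the windows of nuclear protein-coding genes and in these 2 of the 10 iron genes. GATA or TATC stood once in the BHLH38 window, 5 times in that of BHLH100 and nowhere in that of BHLH39.

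Between the genotypes, the comparison of GNLox with Col-0 asks which iron genes differ when GNL is overexpressed. Without sucrose, BHLH38 was the 1 member called, at 2.51 ± 1.09 CPM in GNLox and 0.368 ± 0.0879 CPM in Col-0 (log2 2.76 ± 0.47, edgeR adjusted p = 0.00222). Over all tested genes 13.5% were called in this comparison. The lowest GNLox library, at 1.34 CPM, lay above the highest Col-0 library, at 0.46 CPM. The overlapping PIP5K4, at 7.1 ± 0.412 CPM in GNLox and 8.6 ± 0.967 CPM in Col-0, had a log2 ratio of -0.28 ± 0.13 (edgeR adjusted p = 0.171). BHLH100 was at 0.529 ± 0.316 CPM in GNLox, 44 reads, and at 0.0759 ± 0.0493 CPM in Col-0, 8 reads, without overlap (log2 2.61 ± 0.87, edgeR adjusted p = 0.06). It was called by DESeq2 (0.0344) and by edgeR without GNLox replicate 1 (0.0365). BHLH39, the third subgroup Ib gene, had a log2 ratio of -0.06 ± 0.18 (0.863).

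The uptake genes were not called in GNLox without sucrose. FRO2 was at 0.213 ± 0.0987 CPM in GNLox, below the 0.606 ± 0.179 CPM of Col-0 in every library, with a log2 ratio of -1.59 ± 0.71 (edgeR adjusted p = 0.157). IRT1 had 2 reads in each of these groups, and IRT2 had 1 read in GNLox and 0 in Col-0, so no fold is given. AHA2 was at 1020 ± 193 CPM in GNLox and 712 ± 133 CPM in Col-0 (log2 0.51 ± 0.17, edgeR adjusted p = 0.0526). It passed under 4 other settings, with adjusted p from 0.0141 to 0.0489, and without Col-0 replicate 1 (0.026) or GNLox replicate 3 (0.0257). FIT (log2 -0.17 ± 0.23), PYE (0.2 ± 0.13) and FER1 (0.11 ± 0.31) had edgeR adjusted p values of 0.683, 0.344 and 0.857. The libraries of the 2 genotypes did not overlap for 3 of the 10 genes, BHLH38, BHLH100 and FRO2, against 29.8% of all tested genes.

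With sucrose, BHLH39 was the 1 member called, at 14.8 ± 3.05 CPM in GNLox and 8.7 ± 1.86 CPM in Col-0 (log2 0.76 ± 0.17, edgeR adjusted p = 0.00804), where 20.4% of all tested genes were called. Its call was lost in a fit of the compared groups only (0.068). FRO2 was at 7.84 ± 3.14 CPM in GNLox and 3.51 ± 1.31 CPM in Col-0, without overlap (log2 1.15 ± 0.43, edgeR adjusted p = 0.0683), so that GNLox held the higher FRO2 values with sucrose and the lower ones without. FIT was at 24.9 ± 4.72 CPM in GNLox and 16.3 ± 5.35 CPM in Col-0 (log2 0.61 ± 0.22, 0.0663). FIT passed with DESeq2 (0.0486) and in edgeR without Col-0 replicate 3 (0.0161) or GNLox replicate 2 (0.0408). IRT1 had a log2 ratio of 1.03 ± 0.52 (0.172), and the other 6 genes had edgeR adjusted p values from 0.277 to 0.709. BHLH39, FRO2 and PYE were the 3 genes whose libraries did not overlap, against 37.4% of all tested genes.

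**Figure D3:**
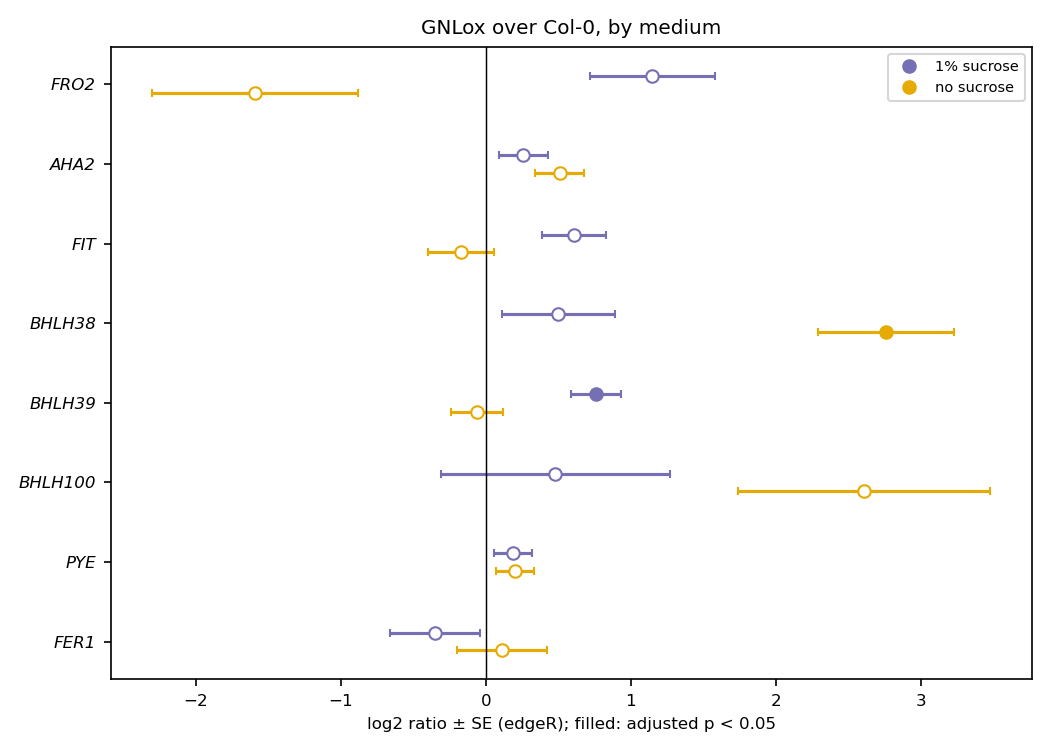
The log2 ratio of GNLox over Col-0 with its SE for 8 genes (rows), with 1% sucrose above no sucrose in each row and filled points for an edgeR adjusted p under 0.05. BHLH38 is called without sucrose at 2.76 and BHLH39 with sucrose at 0.76, and FRO2 lies on opposite sides of 0 on the 2 media. IRT1 and IRT2 are left out because both genotypes had 2 reads or fewer without sucrose.

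None of the 10 iron genes was called by edgeR between the double mutant and Col-0. In gnc gnl against Col-0, edgeR called 0 of the 10 genes without sucrose and 0 with sucrose, against 1.29% and 0.16% of all tested genes. At an unadjusted p under 0.05 there were 1 and 2 members, and DESeq2 called 0 and 0. The libraries overlapped for all 10 genes without sucrose, where 24.7% of all tested genes did not overlap. On that medium the edgeR adjusted p values ran from 0.267 to 0.959, leaving out IRT2, which had 1 read in gnc gnl and 0 in Col-0. IRT1 had 33 reads in gnc gnl and 2 in Col-0, a pooled ratio of 19.6 (exact 95% interval 5.01 to 168, edgeR adjusted p = 0.267), but 32 of the 33 reads came from gnc gnl replicate 1, without which the log2 ratio was -0.14. With sucrose, BHLH39 had the smallest adjusted p (log2 0.48 ± 0.18, 0.236). FRO2 was at 7.39 ± 3.98 CPM in gnc gnl and 3.51 ± 1.31 CPM in Col-0, the 1 gene without overlap (log2 1.06 ± 0.43, edgeR adjusted p = 0.253). Over all genes the libraries did not overlap for 32.3%.

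Whether the response to sucrose itself differed was tested as an interaction, which uses the same Col-0 libraries for both lines. For GNLox, 0 of 10 genes were called by edgeR, 4 had an unadjusted p under 0.05, and DESeq2 called 2, against 1.12% of all tested genes by edgeR. For FRO2 the response of GNLox minus that of Col-0 was log2 2.74 ± 0.82 (edgeR adjusted p = 0.117, DESeq2 adjusted p = 0.0173). For BHLH38 it was log2 -2.27 ± 0.62 (edgeR adjusted p = 0.0855, DESeq2 adjusted p = 0.0179), and edgeR called it without GNLox replicate 1 of no sucrose (0.0374). BHLH39 had 0.82 ± 0.25 (edgeR adjusted p = 0.118) and FIT 0.78 ± 0.32 (0.263). The difference in the BHLH38 response between GNLox and Col-0 thus depended on the tool and on 1 library. For gnc gnl, edgeR called 0 of 10 genes, as did DESeq2, 0 had an unadjusted edgeR p under 0.05, and 0% of all tested genes were called. FER1, whose fall in gnc gnl was the smallest of the 3, had an interaction of log2 0.89 ± 0.43 (edgeR adjusted p = 0.667).

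Per transcript length, the order of the genes changed with the medium. Without sucrose FER1 was the most abundant of the 10, at a mean of 697 TPM in GNLox, 542 TPM in gnc gnl and 714 TPM in Col-0, above AHA2 at 442, 303 and 319 TPM. With sucrose AHA2 led, at 955 TPM in GNLox, 627 TPM in gnc gnl and 650 TPM in Col-0, above FER1 at 176, 318 and 186 TPM. In GNLox without sucrose the SDs of FER1, 289 TPM, and AHA2, 188 TPM, overlapped, so their order there does not stand out from the spread. FIT, BHLH39 and PYE followed in every group without sucrose, and FIT and IRT1 were next to each other with sucrose. IRT1 had 35.3 ± 13.0 TPM in GNLox with sucrose, where FIT had 38.1 ± 6.54 TPM, and 14.3 ± 7.71 TPM in Col-0, where FIT had 20.6 ± 8.1 TPM. FIT and BHLH39 were within their SDs without sucrose, at 11.8 ± 3.51 and 13.4 ± 4.1 TPM in GNLox and 14.4 ± 2.44 and 14.9 ± 2.52 TPM in Col-0. IRT2 ranked 9 or 10 of the 10 genes in all 6 groups, and BHLH100 ranked 7 to 10.

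Most of the root hair and root epidermis markers listed here rose with sucrose, as did the uptake genes. The summed level of 10 root hair and root epidermis markers was 54.7 to 80.0 TPM in GNLox with sucrose, against 6.93 to 15.3 TPM without. It was 44.7 to 66.0 TPM in gnc gnl with sucrose, against 13.9 to 25.0 TPM without, and 56.8 to 81.6 TPM in Col-0 with sucrose, against 10.9 to 14.1 TPM without. Of these 10 markers 8 rose with sucrose in GNLox, 7 in gnc gnl and 9 in Col-0. Over all tested genes 28.7%, 17.9% and 26% rose. PIN2 was called in no genotype (log2 0.23 ± 0.15 in GNLox, -0.11 ± 0.15 in gnc gnl and 0.32 ± 0.15 in Col-0). RSL4 was not called in GNLox or gnc gnl, and WER was not called in gnc gnl. PRP1 and EXPA18 had 0 reads in GNLox without sucrose. The library of gnc gnl without sucrose that held the IRT1 reads, replicate 1, also had the highest marker sum without sucrose, 25.0 TPM. Its sum of root tip markers, 14.9 TPM, was likewise the highest of the 18 libraries, against 6.82 and 6.74 TPM in replicates 2 and 3. Endodermis markers did not move with sucrose as the hair and epidermis markers did. Of 8, 1 rose and 1 fell in GNLox, 0 were called in gnc gnl and 1 rose in Col-0. Of 6 root tip markers 2 rose in GNLox, 1 fell in gnc gnl and 0 were called in Col-0. In the comparisons of GNLox with Col-0, 1 of the 10 root hair and epidermis markers was called as lower without sucrose and 0 were called with it. Over all tested genes 13.5% and 20.4% were called, so these counts on few genes do not set the markers apart. The part of the root markers in the uptake gene results was not tested.

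**Figure D4:**
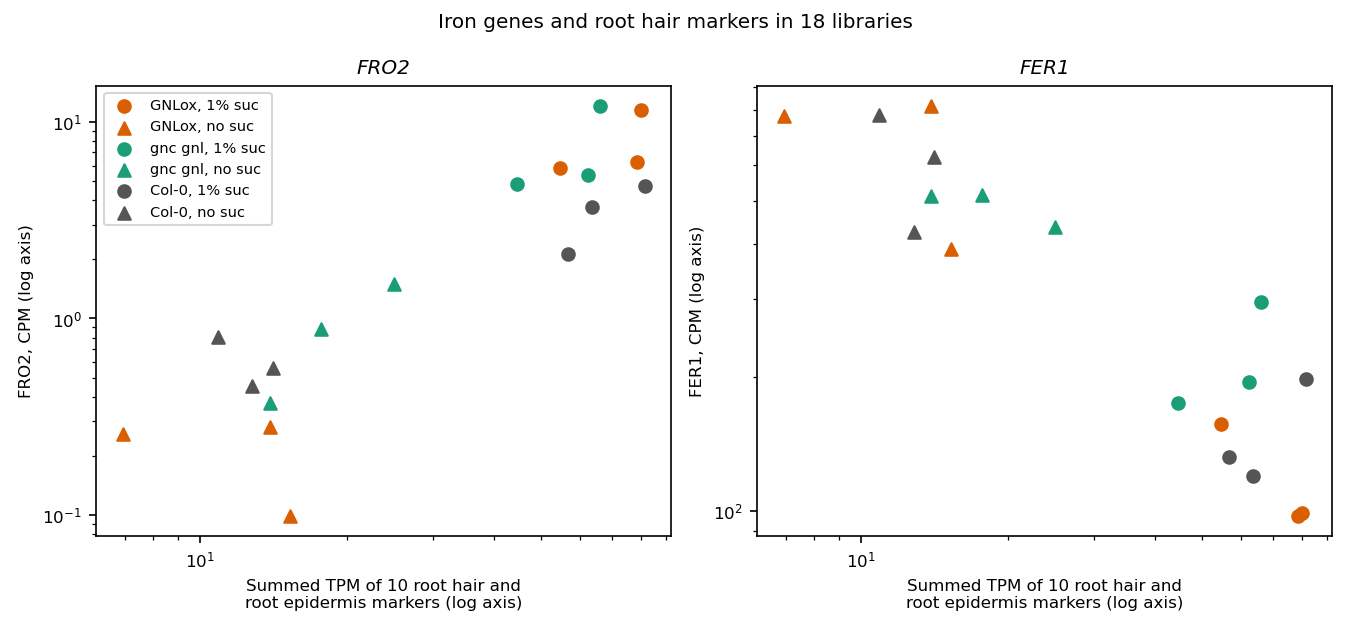
Level of FRO2 (left) and FER1 (right) in CPM against the summed TPM of 10 root hair and root epidermis markers in the 18 libraries, on log axes, with circles for 1% sucrose and triangles for no sucrose. The 9 sucrose libraries lie at marker sums of 44.7 TPM or more and the others at 25.0 TPM or less, with FRO2 high and FER1 low on the sucrose side.

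Beyond the 10 genes, 62 other genes of iron handling were counted, of which 59 were tested (FRO1, MYB72 and NAS3 had too few reads). With sucrose 24 rose and 13 fell in GNLox, 21 rose and 6 fell in gnc gnl, and 25 rose and 10 fell in Col-0. Over all tested genes, 28.7% rose and 26.1% fell in GNLox, 17.9% and 14.3% in gnc gnl, and 26% and 23.8% in Col-0. Of the 59 genes, 40.7% rose and 22% fell in GNLox, 35.6% and 10.2% in gnc gnl, and 42.4% and 16.9% in Col-0, so the shares that fell were no larger than over all genes. The median log2 ratio was 0.2 in GNLox, 0.16 in gnc gnl and 0.34 in Col-0. Genes of coumarin synthesis and release, which make and export phenolics that mobilize iron in the soil, rose in 4 of 6 cases in GNLox, 3 in gnc gnl and 4 in Col-0, and none of them was called as lower by edgeR in any genotype. F6'H1, the hydroxylase that opens coumarin synthesis, was at 52.2 ± 33.8 CPM in gnc gnl with sucrose and 7.33 ± 1.42 CPM without (log2 2.83 ± 0.44, edgeR adjusted p = 0.000431), with replicate 1 of sucrose at 13.3 CPM and the other two at 72.9 and 70.5 CPM. In Col-0 F6'H1 was at 128 ± 7.57 CPM with sucrose and 6.21 ± 1.37 CPM without (log2 4.37 ± 0.47, edgeR adjusted p = 9.15e-06). Its response to sucrose in GNLox was not among those with the smallest adjusted p and is not given here.

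The counts by role rest on few genes and are read beside the same shares over all genes. Up to 4 called other iron genes per direction and comparison were named, those with the smallest adjusted p. A gene without a value for a genotype or medium, here or below, may still have been called there. Over all tested genes, 28.7% rose and 26.1% fell in GNLox, 17.9% and 14.3% in gnc gnl, and 26% and 23.8% in Col-0. Among transport genes, 9 rose and 5 fell of 19 tested in GNLox, 7 and 2 in gnc gnl, and 7 and 3 in Col-0. AHA7, a proton pump known from root hairs, rose with sucrose by log2 2.05 ± 0.24 in GNLox and 1.89 ± 0.24 in Col-0. NAS4 and NAS2, which make the metal chelator nicotianamine, rose in gnc gnl by 1.98 ± 0.32 and 1.69 ± 0.28. YSL3, a transporter of metal-nicotianamine complexes, was the transport gene with the smallest adjusted p among those that fell in each genotype, at 49.5 ± 1.42 CPM in GNLox with sucrose against 111 ± 12.2 CPM without, 53.0 ± 3.88 against 94.2 ± 12.8 CPM in gnc gnl, and 55.1 ± 2.62 against 103 ± 5.49 CPM in Col-0. Of 11 genes of vacuolar iron transport, 2 rose and 3 fell in GNLox, 3 rose and 2 fell in gnc gnl, and 4 rose and 4 fell in Col-0. FPN2, a vacuolar metal transporter, rose in GNLox by log2 2.75 ± 0.32. ZIF1, which moves nicotianamine into the vacuole, fell in GNLox by 0.69 ± 0.12, and NRAMP3, which releases metals from the vacuole, fell by 0.32 ± 0.09 in gnc gnl and 0.43 ± 0.09 in Col-0. Of the 3 other ferritin genes, 1 rose and 1 fell in GNLox, 0 were called in gnc gnl and 1 fell in Col-0.

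Other regulators also went both ways, with 8 rising and 4 falling of 20 in GNLox, 8 and 2 in gnc gnl, and 10 and 2 in Col-0. These were 40% and 20% of the 20 genes in GNLox, 40% and 10% in gnc gnl, and 50% and 10% in Col-0. Over all tested genes the shares were 28.7% and 26.1%, 17.9% and 14.3%, and 26% and 23.8%. AT1G47395, a gene without a name in the annotation used here, rose by log2 2.86 ± 0.25 in GNLox, 2.3 ± 0.25 in gnc gnl and 2.18 ± 0.24 in Col-0. BHLH25, a further bHLH gene, rose in Col-0 by 3.41 ± 0.46. BHLH121 and ILR3, bHLH factors that act upstream of the subgroup Ib genes, fell in all 3 genotypes. BHLH121 fell by log2 1.13 ± 0.16 in GNLox, 0.56 ± 0.16 in gnc gnl and 1.0 ± 0.16 in Col-0, and ILR3 by 0.41 ± 0.07, 0.28 ± 0.07 and 0.4 ± 0.07. The related upstream factors, named after their values were seen, did not move together. BHLH115 rose by log2 0.39 ± 0.09 in GNLox and 0.34 ± 0.09 in Col-0 and had 0.09 ± 0.09 in gnc gnl (edgeR adjusted p = 0.00236, 0.0066 and 0.475). BHLH104 fell in GNLox by 0.26 ± 0.06 (0.00296) and was not called in gnc gnl or Col-0, and BHLH34 had log2 ratios of 0.01 to 0.1 and was not called in any genotype.

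Against Col-0, GNLox had 4 of the 59 genes higher and 5 lower without sucrose, and 8 higher and 3 lower with it. These were 15.3% and 18.6% of the 59 genes, near the 13.5% and 20.4% of all tested genes called, so the counts do not set the iron genes apart. NRAMP3 (log2 0.5 ± 0.09 without sucrose, 0.57 ± 0.09 with it), the ferric reductase family gene FRO4 (0.89 ± 0.19 and 1.05 ± 0.18) and the coumarin glucosidase gene BGLU42 (0.46 ± 0.12 and 0.74 ± 0.12) were higher in GNLox on both media. VIT1, the vacuolar iron importer, was higher without sucrose (2.39 ± 0.48). FPN2 (-2.04 ± 0.33), NAS1 (-1.88 ± 0.32), FRO5 (-1.74 ± 0.34) and VTL2, a vacuolar iron transporter-like gene (-1.47 ± 0.38), were lower without sucrose. NAS2 was higher with sucrose, at 57.0 ± 16.2 CPM in GNLox and 16.7 ± 1.82 CPM in Col-0 (1.78 ± 0.27). F6'H1, at 27.9 ± 3.04 CPM in GNLox and 128 ± 7.57 CPM in Col-0 (-2.2 ± 0.42), and the metal transporter genes IRT3 (-0.62 ± 0.14) and YSL2 (-0.73 ± 0.16) were lower with sucrose. In gnc gnl against Col-0, edgeR called 0 of the 59 genes on either medium, with 12 and 10 at an unadjusted p under 0.05 without and with sucrose, and DESeq2 called 1 and 0. The interaction was called by edgeR for 0 of the 59 genes in either line, with 10 at an unadjusted p under 0.05 in GNLox and 3 in gnc gnl, and DESeq2 called 5 and 0.

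For each member, the 2 other nuclear genes with the most similar profile over the 18 libraries were looked up by Pearson's r of log2 CPM, as a description with no test, since the libraries fall apart by medium and share their depth and scaling. IRT1 was closest to AGP30 (r = 0.983), a root arabinogalactan protein gene, and ERDJ3B (0.981), and IRT2 to the peroxidase gene PER8 (0.986) and PCR5 (0.978). FRO2 was closest to AT1G52660 (0.956) and AT5G05500 (0.939), and AHA2 to ATHB-23 and CSLC5 (0.988 each). FIT was nearest to MT1C (0.941), a metallothionein gene, and CYP705A13 (0.919). BHLH38 was nearest to AT1G13609 (0.951) and AAP7 (0.923), BHLH39 to AXR1 (0.859) and NAC079 (0.843), and BHLH100 to AT2G15530 (0.87) and AT2G40960 (0.853). PYE was nearest to AT1G05970 (0.915) and BIM2 (0.895), and FER1 to AT5G55100 and AT5G49840 (0.991 each). The values were lowest for BHLH39 and BHLH100, a gene with little change and one with few reads.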

How the data were processed

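RNA of 18 seedling samples was sequenced. Per the labels' protocols, a NucleoSpin RNA kit served for extraction. The assembly was TAIR10, per the submitters' processing notes. The sources used here do not name the library kit, strand, aligner or counter, so reads of antisense neighbours cannot be told apart. Per the file headers, the authors deposited read counts (total, unique, in exons and in introns) for 32833 genes per library, RPKM values, TPM values, and the fraction of reads that were unique or intronic. RPKM entered no result. The authors' deposited TPM was used for levels between genes.

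Total gene reads, 27362791 to 41942516 per library, entered edgeR 4.0.16 under R 4.3.3 (filterByExpr, 21903 genes tested, TMM scaling, robust quasi-likelihood fit of 6 group means, 12 residual degrees of freedom, Benjamini-Hochberg adjustment over all tested genes, two-sided). A gene was called, or said to rise or fall, at an adjusted p under 0.05. Adjusted p values in brackets are from edgeR unless DESeq2 1.42.0 is named. SE is the log2 ratio over the square root of F. Where a group had no reads, 3 counts over the group set the bound. With 1 to 3 reads, the pooled ratio has an exact Clopper-Pearson 95% interval, which covers counting error only, and where both groups had 3 reads or fewer no fold is given. On simulated data for sucrose in Col-0 over 21903 genes, 79% of 100 genes changed 2-fold and 97% of 100 changed 4-fold were recovered, with 7 false calls. The changed genes were drawn from those with a mean above 2 CPM, so these rates do not cover low transcripts such as IRT2 and BHLH100. The real comparison called far more genes, 26% as higher and 23.8% as lower.

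Alternatives were RLE scaling, no low-count filter, DESeq2, only the compared groups, a replicate block, unique or exon reads, nuclear genes only, no rRNA genes, and each library left out. Replicates within groups differed beyond sampling noise. Named were all members, up to 4 called other iron genes per direction and comparison with the smallest adjusted p, and 2 genes of most similar profile per member. The members and lists were chosen with earlier results of these data known. PIP5K4 and AT5G01595 were looked up as overlapping genes, and F6'H1 replicates were singled out after seeing their values. Gene positions were the same in the deposited tables and in TAIR10.1 for 32532 of 32548 nuclear genes.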

Additional observations from a re-analysis of the deposited data

How the results depend on the processing

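Of 87 member results, 22 were calls. Of these, 19 were kept in every fit without 1 library, 20 in every other alternative and 18 in all of them, and 0 were reversed. Leaving out 1 library moved the number of members called for sucrose between 6 and 7 in GNLox, 6 and 8 in gnc gnl, and 6 and 7 in Col-0. For GNLox against Col-0 without sucrose, where 1 member was called, RLE scaling, the replicate block and unique reads gave 2, DESeq2 gave 3, and the fits without 1 library gave 1 to 2. With sucrose, where 1 was called, DESeq2 gave 2, the fit of only the compared groups 0, and the fits without 1 library 1 to 2. For the interaction of GNLox, 0 became 2 with DESeq2 and 0 to 1 without 1 library. The cause was not tested. For gnc gnl against Col-0 and its interaction the member count was 0 in all alternatives run.

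Uncalled log2 values that changed sign without 1 library had these ranges. Sucrose in GNLox gave -0.18 to 0.48 for BHLH38. In gnc gnl against Col-0 without sucrose the ranges were IRT1 -0.14 to 6.79, AHA2 -0.14 to 0.13, FIT -0.08 to 0.14, BHLH38 -0.1 to 0.42 and BHLH39 -0.15 to 0.07, and with sucrose BHLH38 -0.41 to 0.41 and BHLH100 -0.38 to 0.88. In GNLox against Col-0 without sucrose they were BHLH39 -0.19 to 0.03 and FER1 -0.09 to 0.38, and with sucrose IRT2 -0.53 to 0.02 and BHLH100 -0.22 to 0.82. For the interaction of GNLox they were IRT1 -1.74 to 3.74 and PYE -0.15 to 0.11, and for that of gnc gnl IRT1 -5.99 to 0.94, FRO2 -0.07 to 0.99 and BHLH38 -0.65 to 0.21.

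Over all genes, sucrose in gnc gnl gave 7063 calls, and 4626 without gnc gnl replicate 2 of no sucrose. GNLox against Col-0 gave 2964 without sucrose (1223 with only the compared groups, 1518 to 2542 without 1 library) and 4464 with it (1645, and 2144 to 4596). For gnc gnl against Col-0 there were 283 without sucrose (DESeq2 979, only the compared groups 31, replicate block 500, 20 to 908 without 1 library) and 35 with it (334, 105, and 16 to 26 without 1 library). The interaction of GNLox gave 245 (DESeq2 873, 2 to 383 without 1 library) and that of gnc gnl 0 (68, and 0 to 1). Of the other iron genes, the 11 called in GNLox with sucrose became 6 with only the compared groups, and the 0 of the GNLox interaction became 5 with DESeq2 and 1 with only the compared groups. In none of the 7 comparisons of 2 groups were all 3 correlations of same-numbered libraries above 0.1. These correlations ran from -0.322 to 0.326. So few values cannot decide whether the numbers pair the samples, and the main fit did not use the numbers. The replicate block gained the call of AHA2 in GNLox without sucrose (log2 0.52, edgeR adjusted p = 0.0342) and lost 0 member calls. Few reads limit BHLH100, IRT1 and IRT2 without sucrose.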

Other observations

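The share of intron reads differed between the iron genes. IRT1 had 0.27% intron reads in GNLox with sucrose (9 of 3279 reads, Wilson 95% interval 0.14% to 0.52%), 0.13% in gnc gnl with sucrose (0.04% to 0.37%) and 0% in Col-0 with sucrose (0 of 1302 reads, up to 0.29%). AHA2 had 0.31% in GNLox with sucrose (0.29% to 0.34%), against 0.5% without it (0.46% to 0.54%). In gnc gnl it had 0.4% with sucrose (0.37% to 0.44%), against 0.5% without (0.44% to 0.56%), and in Col-0 0.39% (0.36% to 0.43%), against 0.66% (0.61% to 0.73%). FER1, whose level changed in the other direction, had 1.56% in GNLox with sucrose (1.37% to 1.77%), against 1.28% without (1.19% to 1.37%). The FER1 intervals of the 2 media overlapped in the other genotypes. They were 1.52% in gnc gnl with sucrose (1.38% to 1.68%), against 1.49% without (1.38% to 1.62%), and 1.43% in Col-0 with sucrose (1.25% to 1.63%), against 1.47% without (1.37% to 1.56%). The intervals cover counting error only, and no test over libraries was made.

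In the coumarin list, 2 genes with low counts had 0 reads in every library without sucrose. CYP82C4, a cytochrome P450 of coumarin synthesis, had 53, 6 and 13 reads in GNLox with sucrose against 0 without, at least 17.7-fold higher, and at least 6.65-fold without replicate 1 of sucrose. In gnc gnl it had 23, 58 and 6 reads with sucrose against 0, at least 21.4-fold higher, and at least 9.97-fold without replicate 2 of sucrose. In Col-0 it had 7, 4 and 9 reads against 0, at least 6.62-fold higher, and at least 4.06-fold without replicate 3 of no sucrose. The floor was 3 counts over the group. The edgeR adjusted p was 0.0198 in GNLox, 0.0244 in gnc gnl and 0.0912 in Col-0. AT3G12900, a gene without a name in the annotation used here, had 15, 3 and 4 reads in GNLox with sucrose, 1, 16 and 3 in gnc gnl and 9, 11 and 11 in Col-0, against 0 without in each. It was at least 5.41-fold higher in GNLox (2.45-fold without replicate 1 of sucrose), 4.92-fold in gnc gnl (1.38-fold without replicate 2 of sucrose) and 10.3-fold in Col-0 (6.29-fold without replicate 3 of no sucrose). In GNLox and gnc gnl, 1 library thus held most of the reads of both genes. The edgeR adjusted p of AT3G12900 was 0.0441 in GNLox, 0.073 in gnc gnl and 0.0193 in Col-0. These genes fall outside the naming rule and were chosen after their values were seen.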
